A study of Mus musculus with 2 samples.

Results

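Clustered histone genes were taken as the protein-coding genes of the GENCODE M21 annotation whose names begin with Hist1h, Hist2h, Hist3h or Hist4h. There were 67 such genes among 21938 protein-coding genes outside the mitochondrial chromosome. Their accessibility was read from an ATAC-seq experiment, in which the transposase Tn5 cuts and tags open chromatin, on live mKate2+ neural progenitor (NP) cells sorted from the mouse embryonic stem (ES) cell line Olig2-mKate2. The cells had been differentiated for 5 days, with 100 nM of the Shh agonist SAG and 100 nM retinoic acid, and each library was made from 50000 cells. The 2 replicate libraries formed 1 group, so they served as a reference for accessibility in unfixed cells and no treatment was compared. By the study's own account, the sorted cells can include young motor neurons and cells with NKX2.2 beside OLIG2+ progenitors.

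Histone genes of these clusters are the main source of the proteins that package new DNA during S phase. Core histones H2A, H2B, H3 and H4 form the nucleosome and linker histone H1 binds the DNA between nucleosomes. Their short genes lack introns as a rule, and their mRNAs end in a stem-loop in place of a poly(A) tail. The clusters gather in nuclear histone locus bodies with NPAT, a coactivator driven by cyclin E and CDK2, while the stem-loop binding protein SLBP and the U7 snRNP process the transcripts. A few clustered genes, such as the linker histone gene Hist1h1t and the core histone genes Hist1h2aa and Hist1h2ba, are known as testis genes of male germ cells.

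The 67 members lay in 4 clusters. Hist1 on chromosome 13 held 54 genes, Hist2 on chromosome 3 held 10, Hist3 on chromosome 11 held 2 and Hist4 on chromosome 6 held 1. By class there were 6 H1, 18 H2A, 18 H2B, 12 H3 and 13 H4 genes. The 13 H4 genes encoded 1 protein sequence from 12 distinct coding sequences, and the 12 H3 genes encoded 3 protein sequences. The 18 H2A genes encoded 9 protein sequences and the 18 H2B genes 12, whereas the 6 H1 genes all differed from each other. These counts use the longest annotated coding sequence of each gene, so a model of unusual length counts as a further sequence. Annotated lengths ran from 136 to 181 residues in H3 and from 126 to 138 in H2B. All H1 members were in Hist1.

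The members' start sequences that bear on the results are given first. They were read from the mm10 assembly, run 5′ to 3′ on the strand named and stop short of the annotated transcripts. Capitals mark 5 motifs, each on either strand. TATAAA is the motif that positions the polymerase and CCAAT the motif of the factor NF-Y. ATTTGCAT is the octamer bound by POU factors. AAACACA is the box shared by H1 promoters. GGTCCG is the core of the H4 promoter element bound by HINFP. The first pair lay between divergent H2A and H2B starts and shows the octamer in the most and in a less accessible pair.
Hist1h2ae and Hist1h2bg (chr13:23571221-23571395, forward strand): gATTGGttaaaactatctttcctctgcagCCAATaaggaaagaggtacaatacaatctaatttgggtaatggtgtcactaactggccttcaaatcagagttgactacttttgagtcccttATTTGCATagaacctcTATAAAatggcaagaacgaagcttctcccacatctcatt
Hist2h2ac and Hist2h2be (chr3:96220881-96221118, forward strand): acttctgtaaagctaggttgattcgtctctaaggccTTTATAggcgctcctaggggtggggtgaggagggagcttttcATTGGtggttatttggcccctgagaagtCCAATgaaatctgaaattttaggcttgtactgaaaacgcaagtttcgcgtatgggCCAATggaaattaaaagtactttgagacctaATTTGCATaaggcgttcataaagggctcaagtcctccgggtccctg
The next sequences precede the starts of the 2 members with the highest densities and of the testis H1 gene, which had no interval.
Hist4h4 (chr6:136804416-136804565, reverse strand): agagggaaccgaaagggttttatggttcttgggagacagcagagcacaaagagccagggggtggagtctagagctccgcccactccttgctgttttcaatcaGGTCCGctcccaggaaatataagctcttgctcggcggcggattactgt
Hist1h1c (chr13:23738658-23738807, forward strand): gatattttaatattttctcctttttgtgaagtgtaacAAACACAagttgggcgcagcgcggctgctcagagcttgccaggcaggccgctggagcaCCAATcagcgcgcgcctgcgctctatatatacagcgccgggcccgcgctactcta
Hist1h1t (chr13:23695664-23695813, forward strand): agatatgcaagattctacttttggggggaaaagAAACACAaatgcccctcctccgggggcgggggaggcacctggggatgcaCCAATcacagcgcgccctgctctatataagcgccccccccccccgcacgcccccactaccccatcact
The last set shows near-identical copies, for which the source of a read may be ambiguous.
Hist1h2bq and Hist1h2ao (chr13:21810198-21810464, forward strand): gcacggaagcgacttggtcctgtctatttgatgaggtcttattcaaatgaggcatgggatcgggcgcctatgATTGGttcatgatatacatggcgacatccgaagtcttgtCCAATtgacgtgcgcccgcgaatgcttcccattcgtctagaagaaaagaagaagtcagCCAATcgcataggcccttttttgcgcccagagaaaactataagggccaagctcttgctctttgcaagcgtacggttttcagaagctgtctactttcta
Hist1h2ap and Hist1h2br (chr13:21833508-21833742, forward strand): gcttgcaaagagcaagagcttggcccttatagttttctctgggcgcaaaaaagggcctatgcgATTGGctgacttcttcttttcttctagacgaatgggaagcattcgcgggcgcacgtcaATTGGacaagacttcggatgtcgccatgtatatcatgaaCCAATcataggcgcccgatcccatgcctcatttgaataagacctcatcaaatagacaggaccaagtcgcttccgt
Hist1h4n (chr13:21832197-21832346, reverse strand): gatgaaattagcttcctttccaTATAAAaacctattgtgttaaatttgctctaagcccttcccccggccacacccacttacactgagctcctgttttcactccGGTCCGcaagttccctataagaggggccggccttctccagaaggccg
Hist2h2aa1 (chr3:96245347-96245496, forward strand): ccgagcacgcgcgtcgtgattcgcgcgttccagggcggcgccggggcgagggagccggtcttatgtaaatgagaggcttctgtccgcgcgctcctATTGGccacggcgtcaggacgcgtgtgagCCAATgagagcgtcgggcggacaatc
Hist2h2aa2 (chr3:96240277-96240426, reverse strand): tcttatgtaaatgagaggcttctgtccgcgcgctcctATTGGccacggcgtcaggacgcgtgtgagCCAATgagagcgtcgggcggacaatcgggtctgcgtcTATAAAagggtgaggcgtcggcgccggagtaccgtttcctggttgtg
All 235 bases between Hist1h2ap and Hist1h2br lay within the stretch between Hist1h2bq and Hist1h2ao when read on the other strand. The 150 bases before Hist1h4m were identical to those printed for Hist1h4n. In the 300 bases before the start codon, Hist2h2aa1 and Hist2h2aa2 were identical at 298 positions.

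Accessibility was scored from counts in the 119502 consensus intervals of the study. Replicate 1 held 31876165 counts and replicate 2 held 31672240. A TSS interval is an interval that overlaps the start of any annotated transcript of a gene, and promoter density is its count, normalised for library size, per kb of interval. Among cell type genes, progenitor Olig2 had a promoter density of 946 ± 23.2 (SD, n = 2), Nkx6-1 had 1452 ± 27.3, Sox2 had 862 ± 25.8 and Pax6 had 577 ± 4.65. Pluripotency genes Pou5f1 and Nanog had no TSS interval and Zfp42 had a density of 237 ± 4.87. Motor neuron genes Mnx1, Isl1 and Slc18a3 had densities of 557 ± 52.1, 472 ± 8.69 and 299.9 ± 12.2, and the feeder fibroblast genes Col1a1, Col1a2 and Thy1 had densities of 472 ± 34.6, 123 ± 8.76 and 248 ± 1.83. The part of these other cells in the histone values was not tested. ATAC-seq of a mixed population does not tell a few wide-open cells from many partly open cells.

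Most clustered histone promoters were open. Of the 67 members, 58 (86.6%) had a TSS interval, against 68.1% of all protein-coding genes. Promoter density had a median of 1004 ± 51.1 (SD, n = 2) over all 67 members, counting genes without an interval as 0, and 491 ± 8.19 over all protein-coding genes. Among genes with a TSS interval, the medians were 1073 ± 47.1 for the members and 827 ± 18.2 for all protein-coding genes, and 47 of the 58 members (81.0%) lay above the latter. The member median was 1.21 ± 0.0352 times the median of all protein-coding genes with a TSS interval, even with its 9 zeros kept in. Members were close together in density, but those on a shared interval carry the same value, and the 58 lay on 37 intervals. Between 750 and 1500 normalised counts per kb lay 18, 14 and 16 members in successive steps of 250, and 4 members exceeded 1500.

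**Figure D1:**
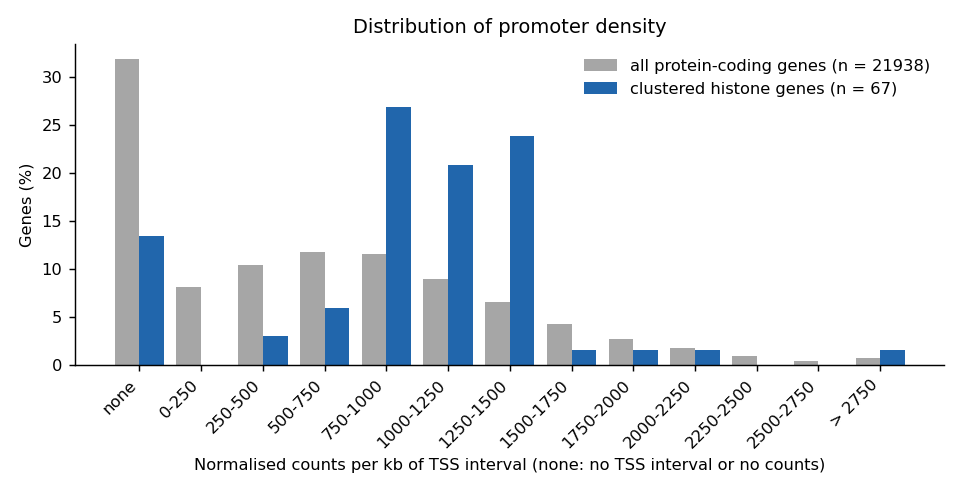
Share of genes (%) by promoter density, in normalised counts per kb of TSS interval, mean of 2 libraries, for all 21938 protein-coding genes (grey) and the 67 clustered histone genes (blue). The members peak between 750 and 1500, and 13.4% of them are at 0 against 31.9% of all genes.

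Of the 6 linker histone genes, 4 had a TSS interval, with densities from 854 to 2074. Hist1h1c had 2899 counts in replicate 1 and 2887 in replicate 2, a density of 2074 ± 7.28, the second highest of the members. Hist1h1e had 2673 and 2491 counts, a density of 1458 ± 73.5. Hist1h1b had 1872 and 1750 counts and a density of 1075 ± 51.8. Both were above the median of coding genes in both libraries. Hist1h1a shared an interval of 3904 and 3624 counts with Hist1h4a and Hist1h3a, at 854 ± 45.4, and was the lowest H1 gene above 0. Hist1h1t and Hist1h1d had no TSS interval. For Hist1h1d this follows from its annotated start, which lies 1828 bp before its coding sequence. An interval over the coding start of Hist1h1d (chr13:23554939-23556572) held 2519 and 2350 counts, a density of 1490 ± 74.0. Counted there, Hist1h1d and Hist1h1e would differ by less than the SD of either.

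The highest member density belonged to an H4 gene. Hist4h4, the lone gene of its cluster (chr6:136801553-136804415), had 3362 counts in replicate 1 and 3456 in replicate 2 over 1172 bp. Its density of 2909 ± 55.0 was at percentile 99.5 of all protein-coding genes. Hist1h4h followed at 1979 ± 98.95 (1999 and 1864 counts), and Hist1h4i was at 1633 ± 20.3 (1183 and 1205 counts). The lowest H4 values above 0 were 700 ± 49.6 at Hist1h4j (1647 and 1491 counts) and 702 ± 33.5 at Hist1h4n (790 and 739 counts). The 13 genes encode the same protein, and their densities above 0 thus ran from 700 to 2909 for 1 product. Hist1h4m had no TSS interval by a margin of 2 bp, and the interval over its coding start held 448 and 403 counts.

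Among the H2A and H2B genes the highest density belonged to the interval shared by Hist1h2ae and Hist1h2bg. It held 2103 counts in replicate 1 and 1987 in replicate 2, a density of 1477 ± 60.1. The lowest H2B density above 0 was at Hist3h2ba, with 1055 and 962 counts and 698 ± 45.9, and its Hist3 neighbour Hist3h2a had 1794 and 1725 counts and 1147 ± 32.5. The interval of Hist3h2a also covered the start of Trim17, a ubiquitin ligase gene. The testis pair Hist1h2aa and Hist1h2ba had no interval, and the nearest lay 15205 and 15511 bp away. For Hist1h2be the annotated start lay 35168 bp from its coding sequence, within the Hist1h1e interval, so its density of 1458 is that of Hist1h1e. The interval over the coding start of Hist1h2be held 1404 and 1286 counts, a density of 825 ± 51.7.

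All 12 H3 genes had a TSS interval, and no other class was complete. The highest was Hist2h3b, whose interval of 2523 and 2393 counts (1292 ± 49.1) was shared with Hist2h2bb. Hist1h3e had 2141 and 1897 counts (1188 ± 102). Hist1h3d had 661 and 581 counts and a density of 560 ± 51.4, the lowest of the Hist1 members above 0. Hist2h3c1 was lower still, at 284 ± 21.8.

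By class the median density over all members was 1081 ± 36.0 for H2A, 1025 ± 41.2 for H4, 989 ± 49.5 for H2B, 965 ± 48.6 for H1 and 893 ± 37.6 for H3. This order counts members without a TSS interval as 0 and was the same in both libraries. H2A had medians of 1106 and 1055, H4 of 1054 and 995.5, H2B of 1024 and 954, H1 of 999 and 930, and H3 of 920 and 866. The values of H4, H2B and H1 overlapped between the libraries. The nearest values of H2A and H4 were 1055 and 1054, and those of H1 and H3, 930 and 920, did not overlap either. Over members with a TSS interval alone the order was another, with H1 the highest at 1267 ± 62.7, followed by H2A at 1101 ± 24.1, H2B at 1095 ± 15.6, H4 at 1039 ± 31.5 and H3 at 893 ± 37.6. The classes are not independent, since many intervals serve genes of several classes.

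**Figure D2:**
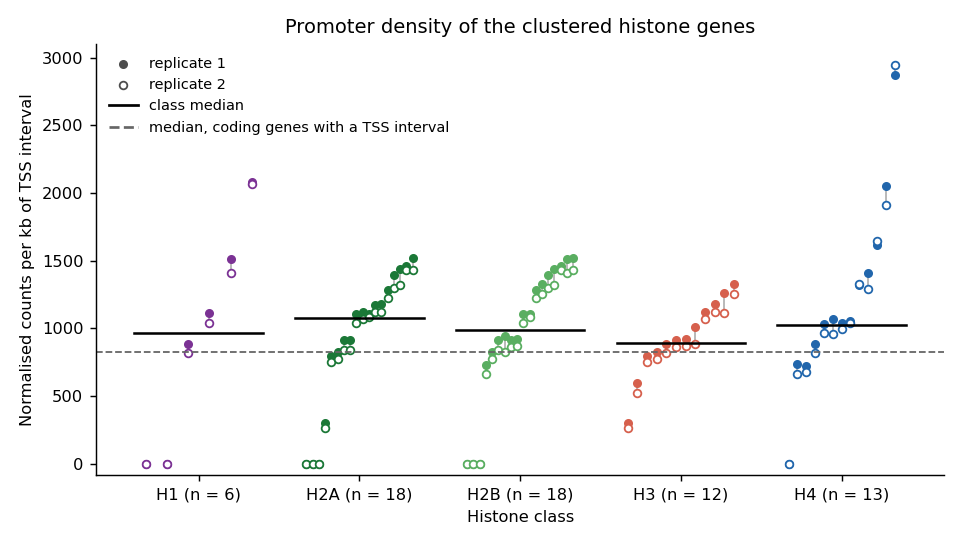
Promoter density of each of the 67 members by histone class, in normalised counts per kb of TSS interval, with replicate 1 as filled and replicate 2 as open points joined by a line. Black bars are class medians over all members and the dashed line is the median of all protein-coding genes with a TSS interval, 827. Hist4h4 stands highest at 2909, and the 9 members without a TSS interval are at 0.

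Most members with a TSS interval shared it. The 58 members with a TSS interval lay on 37 distinct intervals, of which 19 covered 1 member start, 15 covered 2 and 3 covered 3. Of the 58, 40 (69.0%) shared the interval with another protein-coding gene, against 18.9% of all genes with a TSS interval. Other than members, the only protein-coding genes on these intervals were Trim17 and Bola1. Member intervals had a median length of 1684 bp, against 1188 bp over all TSS intervals. The whole gene lay inside its TSS interval for 37 of the 58 members (63.8%), against 0.723% of all genes with a TSS interval. Gene length bears on this. Among genes of at most 1000 bp with a TSS interval, 36 of 42 members (85.7%) and 42 of 76 other genes (55.3%) lay whole inside. Of all 670 other coding genes of at most 1000 bp, 76 (11.3%) had a TSS interval at all.

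Divergent transcription of H2A with H2B was the commonest arrangement on a shared interval. There were 13 pairs of neighbouring members with divergent starts within 1 kb, 12 of H2A with H2B and 1 of H2B with H3 (Hist1h2bh and Hist1h3f). The starts were 175 to 659 bases apart, with a median of 267. In 10 pairs both starts fell on 1 interval, and in the other 3 (Hist1h2bq with Hist1h2ao, Hist1h2ap with Hist1h2br, Hist1h2ba with Hist1h2aa) neither had one. Shared intervals ranged in density from 800 ± 39.9 at Hist1h2bl and Hist1h2ai (2595 and 2420 counts) to 1477 ± 60.1 at Hist1h2ae and Hist1h2bg. Their median was 1176, against 1046 for the other 27 member intervals. Over all TSS intervals the median was 1099 with 2 coding genes and 702 with 1. Member intervals that covered 1, 2 and 3 member starts had medians of 1046, 1151 and 854. The pair with the shortest annotated distance between starts was also the densest. Hist2h2ac and Hist2h2be, 238 bases apart, were at 875 ± 52.1 (2260 and 2079 counts). These distances depend on the gene models. In 11 members the model starts at the start codon, whereas that of Hist1h2ae starts 112 bp upstream of it. A link between distance and density was not tested.

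**Figure D3:**
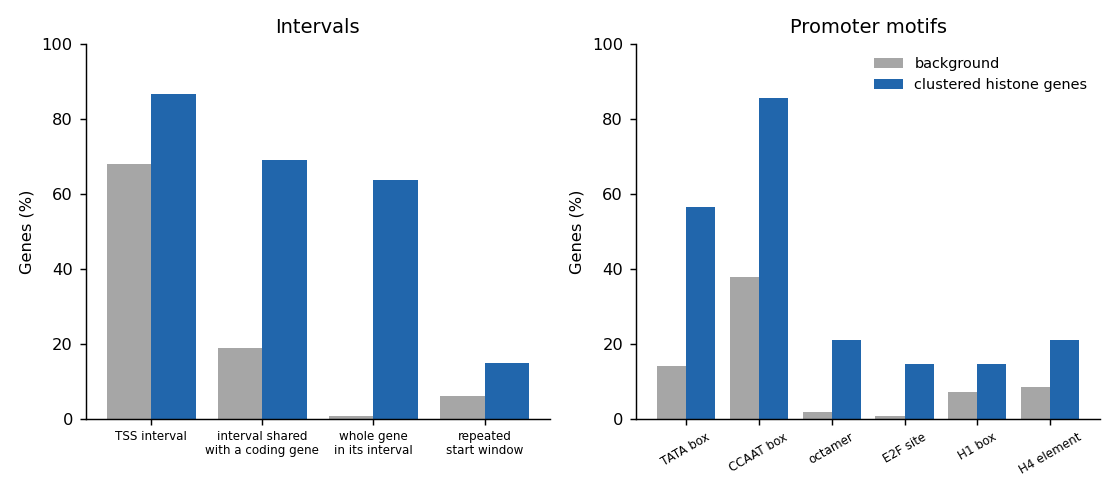
Left, shares of genes (%) with a TSS interval, with an interval shared with another coding gene, lying whole inside the interval, and with a repeated start window, for clustered histone genes (blue) and all protein-coding genes (grey). The second share and the one after it are of genes with a TSS interval. Right, shares of RefSeq promoters (%) that hold each motif, for 62 members (blue) and all 27025 promoters (grey). The widest gap is for whole genes inside the interval, 63.8% against 0.723%.

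The promoter letters differed by class, though not strictly. RefSeq promoters of the mm10 build, from 250 bases before to 50 bases after the start, were matched to 62 of the 67 members. The motif letters were chosen after the member sequences had been read. The motif shares given here and below therefore describe these promoters and test nothing. On either strand, CCAAT was in 53 of the 62 (85.5%) against 37.9% of all 27025 promoters. It was in every matched H1, H2A, H2B and H3 promoter and in 3 of 12 H4 promoters. GGTCCG showed the reverse pattern, in 11 of 12 H4 promoters and in 13 of all 62 members, against 8.39% of all promoters. Hist1h4a was the H4 promoter without it. AAACACA was in 5 of 6 H1 promoters, all but that of Hist1h1a, and also in 2 H2A and 2 H2B promoters. That made 9 of the 62 members (14.5%), against 7.14% of all promoters.

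The octamer ATTTGCAT was found in 7 of 18 H2A and 6 of 16 H2B promoters and in no other class, against 1.75% of all promoters. E2F motifs, searched as TTTCGCGC or TTTGGCGC, were in 5 H2A and 4 H2B promoters, together 14.5% of the members against 0.833% of all promoters. TATAAA was in 35 of 62 members (56.5%) against 14.2%, and 12 members held it in the sense direction from 40 to 20 bases before the start. Divergent promoters overlap, so a pair can count the same motif for both genes. Member promoters had a median GC content of 45.3%, against 52.7%, and a median CpG observed-over-expected ratio of 0.748, against 0.389. For the 53 matched members with a TSS interval, the median density was 1147 with the octamer (11 members) and 1074 without (42). It was 1256 with an E2F motif (9 members) and 1031 without (44). With TATAAA it was 1046 (31 members) and without it 1121 (22), and with CCAAT 1095 (45) and without it 1184 (8). Members on a shared interval enter these medians with the same density. All members without CCAAT were H4 genes, so that split also compares classes. None of these differences was tested. The testis genes Hist1h2aa and Hist1h2ba both held the octamer and AAACACA, and Hist1h1t held AAACACA without the octamer. None of them had an interval.

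Sequence repeats set a limit on several members. Within 250 bp of the start, the share of 50-base words that occur elsewhere in the assembled genome had a median of 23.7% over the members and of 0 over all protein-coding genes. It exceeded 50% in 10 members (14.9%) and in 5.99% of all protein-coding genes. For Hist1h2bq, Hist1h2ao, Hist1h2ap and Hist1h2br it was 100%, and these 4 had no TSS interval. For Hist1h4m and Hist1h4n, the H4 genes of the same duplicated stretch, it was 88.9% and 90.9%. How reads that match several places were treated is not given in the sources used here, so the missing intervals at these genes do not show that their chromatin was closed.

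The Hist2 cluster holds 2 copies of an H2A and H3 gene pair. The H2A copies were near identical before the start codon, as given above. For Hist2h3c1 and Hist2h3c2, compared without gaps, 91 of the 300 bases before the annotated start codons were identical. The annotated protein of Hist2h3c1 had 181 residues, against 136 for that of Hist2h3c2, so the 2 annotated start codons need not correspond. The comparison takes no account of such a shift, so the 91 bases do not measure how alike the H3 copies are. The window around each H3 gene's annotated start held 88.9% repeated words. The interval of Hist2h3c2 and Hist2h2aa2 (chr3:96237620-96240597) held 3329 counts in replicate 1 and 3190 in replicate 2, a density of 1095 ± 33.6. The interval of Hist2h2aa1 and Hist2h3c1 (chr3:96245073-96247946) held 860 and 772 counts, a density of 284 ± 21.8 and the lowest of all member intervals. Repeated words made up 64.2% of the former and 66.5% of the latter. The levels did not overlap between the libraries, and the part of read placement in this difference was not tested. The other Hist2 interval with a member not yet named, that of Hist2h4, held 2038 and 1952 counts and was at 1018 ± 31.6, and Hist2h2ab shared the interval of Hist2h2ac and Hist2h2be, which also covered the start of Bola1, a mitochondrial iron-sulphur protein gene.

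Most interval counts within the histone gene blocks fell on intervals that overlap a member start. Counts here and below are those in consensus intervals only, and each block begins and ends at a member. Splitting Hist1 wherever members lay over 100 kb apart gave 4 blocks. The first, of 18 genes, had a median density of 800 ± 39.9 with 13 genes on a TSS interval. The second, of 5 genes, had 1378 ± 81.7 with all 5. The third, of 29 genes, had 1095 ± 15.6 with 27, and the last held only the testis pair without an interval. Member TSS intervals took 94.6% of the counts in the first block in replicate 1 and 94.3% in replicate 2, and 87.8% and 87.7% in the third. They were 9 of the 12 intervals of the first block and 17 of the 28 of the third. In Hist2 they took 96.8% and 97.1%, over 50.3 kb.

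**Figure D4:**
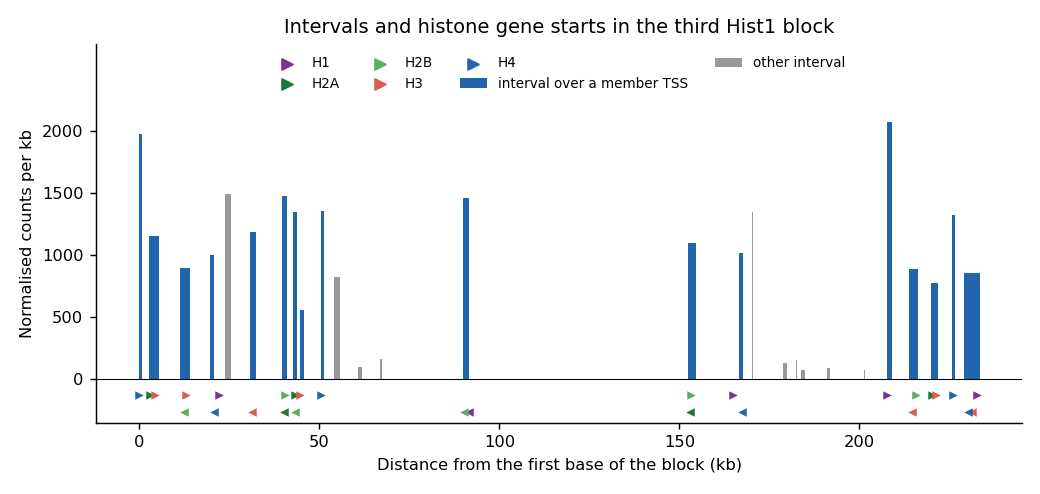
Density of each interval (bars, normalised counts per kb, mean of 2 libraries, drawn to width) along the third Hist1 block, by distance from its first base in kb, with histone gene starts as triangles pointing in the direction of transcription and coloured by class. Blue bars cover a member start and grey bars do not. The grey bar near 24 kb, at 1490, covers the coding start of Hist1h1d, and the one near 54 kb, at 825, that of Hist1h2be.

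Other kinds of genes lay within the Hist1 span. The whole Hist1 span of 2219 kb held 126 intervals, of which 29 covered a member start and took 52.8% of the counts in each library. Vomeronasal receptor genes of the Vmn1r family, which serve pheromone sensing, numbered 36 in the span, and 0 had a TSS interval. Of the 13 other coding genes 8 had one, with densities from 135 at Hfe, the haemochromatosis iron regulator, to 1803 at the zinc finger gene Zfp322a. The span also held 77 of the 403 tRNA genes that RefSeq places on assembled chromosomes. Of these 77, 70 lay on an interval, against 269 of all 403 (66.7%). Of the 84 intervals that covered neither a coding gene start nor a member, 45 covered a tRNA gene. These 45 had a median density of 438, and the rest had a median of 167. Genome-wide, the 148 intervals over a tRNA gene and no coding gene start had a median of 533.

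Other genes of histone supply were also open. The 13 listed genes of histone mRNA synthesis and 3′ processing all had a TSS interval, with a median density of 1230 ± 10.4. The highest were Casp8ap2, which encodes the histone locus body protein FLASH (2607 ± 44.7), Slbp (2567 ± 81.1), Hinfp, the activator of H4 genes (2562 ± 97.01), and Npat (2068 ± 68.4). The lowest was Pou2f1, which encodes the octamer-binding factor OCT1, at 723 ± 37.1. In between were the U7 snRNP genes Lsm10 (1694 ± 36.1) and Lsm11 (920 ± 22.2), E2f1 (1362 ± 54.5), Zfp473 (930 ± 38.4) and the cleavage factor genes Sympk (1230 ± 10.4), Cpsf2 (1165 ± 34.1), Cpsf3 (1142 ± 6.95) and Cstf2 (820 ± 10.0).

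The 9 genes listed as histone chaperones, most of whose proteins carry histones to DNA, all had a TSS interval and a median density of 1252 ± 70.4. They ran from Asf1b at 3728 ± 29.7 through Daxx (2026 ± 16.9), Hat1 (1482 ± 8.71), Hira (1455 ± 70.3), Chaf1b (1246 ± 78.2), Asf1a (1221 ± 26.9), Nasp (816 ± 63.9) and Chaf1a (651 ± 25.9) to Atrx at 389 ± 17.5.

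The listed non-germline variants outside the clusters, most of them replication-independent and from genes that lie alone, had 11 of 11 genes on a TSS interval. Their median of 993 ± 76.3 was close to that of the clustered members. H2afv, at 3253 ± 65.4, was above the top member at 2909. The other variants lay within the range of the members. H3f3b was at 2264 ± 103, H2afx at 2135 ± 121 and H2afj at 2013 ± 59.9. Lower levels were found at H2afz (1172 ± 12.5), H3f3a (993 ± 76.3), Cenpa (950 ± 36.9), H1fx (932 ± 51.6), H1f0 (854 ± 58.9), H2afy2 (782 ± 42.7) and H2afy (640 ± 25.9). The germline variants outside the clusters (H1foo, H1fnt, Hils1, H2afb1, H2afb2 and H2afb3) had no TSS interval in 6 of 6 genes, as was the case for the 3 testis genes of the Hist1 cluster.

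The libraries differed slightly at the members. Of the 37 member intervals 34 (91.9%) were lower in replicate 2, with a median log2 ratio of replicate 2 over replicate 1 of -0.09 and a range from -0.19 to 0.04. The exceptions were Hist4h4, Hist1h4i and Hist1h4b, all H4 genes with an interval of their own. The median was -0.03 over all TSS intervals, of which 65.3% were lower in replicate 2, and -0.04 over 10330 other TSS intervals in the members' range of counts, of which 71.7% were lower. Ratios were largest at Hist1h2bm (-0.19; 1429 and 1252 counts), Hist1h3d (-0.19) and Hist1h3i (-0.19; 1073 and 944 counts).

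A two-sided exact binomial test, which covers counting error only, with Benjamini-Hochberg adjustment at 0.01 called 0 of the 37 member intervals, with 0% called over all 119502 intervals. At an unadjusted p under 0.05, 20 of the 37 (54.1%) passed, against 8.39% of all intervals and 15.3% of the 10330 TSS intervals in the same range of counts. These sets differ in depth, with a median normalised count of 1995 for member intervals, 65.0 for all intervals and 1355 for those 10330. The lowest adjusted p among the members was 0.138, at Hist1h3e, in this exact binomial test. Other intervals nearby were also lower in replicate 2. The other 97 intervals within the Hist1 span, of any kind, had a median log2 ratio of -0.08 and 73.2% were lower in replicate 2. All 4962 intervals of chromosome 13 outside the span had a median of 0.008, and 49.3% were lower. The 560 TSS intervals outside the span had a median of -0.02, and 61.6% were lower. With 2 libraries in 1 group, the part of the libraries' handling in this shift was not tested.

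**Figure D5:**
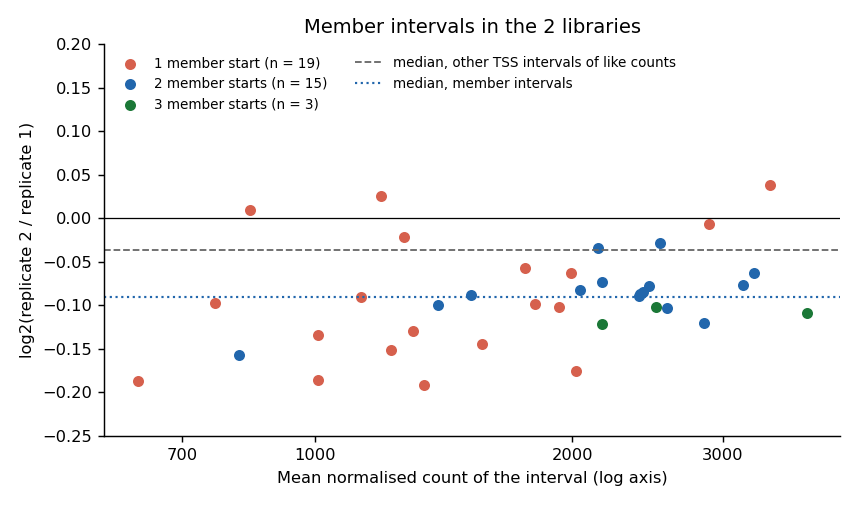
Log2 ratio of replicate 2 over replicate 1 against the mean normalised count (log axis) for the 37 member TSS intervals, coloured by the number of member starts they cover. Lines mark no difference, the median of member intervals (-0.09, dotted) and that of other TSS intervals of like counts (-0.04, dashed). Of the member intervals, 34 lie below 0.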

How the data were processed

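ATAC-seq libraries of live mKate2+ cells were processed by the authors with the nf-core atacseq pipeline on mm10. The deposited values are raw featureCounts 2.0.1 counts in consensus intervals, called over 5 libraries, and 3 count columns that match no sample were not used. Peaks were called by MACS under a strict FDR limit, had to be found in at least 2 replicates to enter the consensus, and had to pass the same limit on the q value in at least 1 sample. Member genes, gene lists and motifs were chosen with earlier results of these data known, and the motif letters after the member sequences had been read. TSSs were the starts of all GENCODE M21 transcripts of a gene, and densities of several TSS intervals were pooled. Normalisation used size factors of DESeq2 1.42.0, and values were then divided by interval length. Libraries were compared by a two-sided exact binomial test (scipy 1.17.1), and no group was tested. In simulated data for this comparison, over 119502 intervals, 189 of 200 changed intervals (94.5%) were recovered with 0 false calls. The simulated counts held counting error only, as the test assumes. Their changes were larger than any seen at the members, so the recovery does not carry over to shifts of that size. Named genes were members without an interval, extremes of each class and of the whole set, all Hist2, Hist3 and Hist4 members, testis genes, extreme pairs, the largest replicate ratios and all listed genes. The labels do not say whether the 2 libraries came from separate cultures, so differences between them may be technical. The binomial test sets 1 library against the other, takes every read as independent and covers counting error only.

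Alternatives were edgeR 4.0.16 TMM factors or total counts, counts per interval, other TSS definitions, a minimum count, each interval used once and each replicate left out.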

Additional observations from a re-analysis of the deposited data

How the results depend on the processing

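Counts per interval without division by length moved the member median to 2064, its ratio to the median of all coding genes with a TSS interval to 1.96, and the class medians to 2197 for H1, 2137 for H2A, 2178 for H2B, 2410 for H3 and 1270 for H4. On that scale H3 was the highest class and H4 the lowest, where per kb H3 was the lowest, and the highest was H2A with members lacking an interval at 0, or H1 without those members. The ratio was 1.14 with only the gene's 5′ end as the start, 1.32 with intervals within 1 kb of a start and 1.35 with each interval used once. It was 1.30, and the member median 1072, without the 10 members of repeated sequence, an alternative chosen after seeing the data. TMM factors, total counts and a minimum mean count of 10 moved no median or ratio beyond 1 SD. Leaving out a replicate gave a member median of 968 to 1040 and a ratio of 1.19 to 1.24.

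The number of members with a TSS interval was 58 by the 5′ end, 60 within 1 kb and 60 with an interval over the start codon (a choice made after seeing the data), for which 46.5% of all coding genes had one. The binomial test called 0 member intervals under each normalisation and with a minimum mean count of 10, and 33 or 34 of the 37 were lower in replicate 2. No paired analysis was possible because the libraries form 1 group only.

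Duplicated sequence, shared intervals and distant annotated starts limit the reading of single members, and 2 libraries give an SD with 1 degree of freedom. Counts do not report transcription or the cell cycle phase of the sorted cells.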
